A study of Homo sapiens with 12 samples.

Results

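TXNIP, its relatives ARRDC1, ARRDC2, ARRDC3 and ARRDC4, and the glucose sensor MLXIP were followed across untreated and honokiol-treated leukemia cells. They are 6 of the 36866 genes in the deposited table and were found there by symbol. The 6 genes were chosen by their measured values, because the responses of the cell lines to honokiol were opposite or unequal. Their responses to honokiol, and the difference of these responses between the lines, are therefore given as a description without a test. THP-1 and U-937 are established monocytic lines, both described in the study as acute myeloid leukemia (AML) and labelled with a complex karyotype. Cells of each line received honokiol, a biphenol of magnolia bark, or 0.1% DMSO as the negative control for 24 h, and poly(A) RNA of 3 libraries was sequenced for each of the 4 groups. The labels list honokiol at 20 and 35 µM without naming the line, so the dose of a sequenced library cannot be stated. In its cell-cycle and inhibitor assays the study used 20 µM for THP-1 and 35 µM for U-937. It names no dose for the sequencing, and the lines may have received different doses. Each line stands for 1 case. The labels do not say that the 3 libraries of a group came from separate cultures, and the general statement on repeats in the study's methods does not name the sequencing, so the p-values measure only the spread between these libraries, which may be technical.

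The alpha-arrestins are adaptor proteins that link membrane proteins to ubiquitin ligases of the NEDD4 family and so steer them into endosomes. TXNIP, the best known of them, binds reduced thioredoxin and brings about the internalization of the glucose transporter encoded by SLC2A1. Its transcription is driven by the factor MondoA, encoded by MLXIP, which with its partner MLX senses glucose 6-phosphate and binds paired E-box elements in the promoters of TXNIP and ARRDC4. In blood cancers TXNIP is known as a restraint on glucose uptake and on growth.

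The promoter sequences of the 6 genes are shown first, since TXNIP and ARRDC4 share a known regulator and their levels can be read beside their sites. Windows of 300 bases, 250 before and 50 after a RefSeq transcript start (GRCh38.p14), were found for 6 of 6 genes, with 9 windows in all. Both strands were searched for the E-box CACGTG, for CCAAT and for GTAAACA, the core recognized by FOXO and other forkhead factors. A pair of CACGNG motifs separated by 5 bases on one strand was also sought. It is a form of the carbohydrate response element, and other forms of the paired element were not searched. The letters were chosen after the sequences had been seen. Of 35093 windows over all genes, 0.0570% held the pair, 7.26% the E-box, 34.6% CCAAT and 3.42% GTAAACA. Capitals mark the matches, for the pair with the 5 bases between, and show ATTGG and TGTTTAC as the reverse complements of CCAAT and GTAAACA.
TXNIP, chr1:145996641-145996729, minus strand: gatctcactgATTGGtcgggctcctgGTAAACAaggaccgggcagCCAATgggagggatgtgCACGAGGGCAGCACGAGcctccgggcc
ARRDC4, chr15:97960483-97960650, plus strand: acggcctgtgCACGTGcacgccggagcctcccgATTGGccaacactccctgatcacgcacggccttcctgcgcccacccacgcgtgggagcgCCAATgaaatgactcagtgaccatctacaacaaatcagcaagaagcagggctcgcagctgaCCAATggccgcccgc
ARRDC3, second start, chr5:91380110-91380136, minus strand: gcccggcactTGTTTACcacggcgcgg

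The TXNIP stretch runs from 150 to 62 bases before the start, the ARRDC4 stretch from 220 to 53 bases and the ARRDC3 stretch from 39 to 13 bases. TXNIP was the only one of the 6 genes with the pair in the form searched, at position -88 from the start. As this form was chosen with the sequences known, nothing is read from its absence in the other genes. The TXNIP window also held 1 match to GTAAACA and 2 to CCAAT. ARRDC4 held 1 E-box, at position -210, and 3 matches to CCAAT. The ARRDC3 window with the GTAAACA match belongs to a start within the gene, and the window of its outer start held only CCAAT, as did 1 window each of ARRDC1, ARRDC2 and MLXIP. A match is a description of the letters and not of binding, which was not measured.

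The genes lie on 6 chromosomes, given here as in the deposited table on GRCh38. TXNIP (ENSG00000265972) spans chr1:145992435-145996579 on the minus strand. ARRDC1 (ENSG00000197070) spans chr9:137605685-137615360, ARRDC2 (ENSG00000105643) chr19:18001132-18014102, ARRDC4 (ENSG00000140450) chr15:97960703-97973833 and MLXIP (ENSG00000175727) chr12:122078756-122147344, all on the plus strand. ARRDC3 (ENSG00000113369) spans chr5:91368631-91383317 on the minus strand. ARRDC1 overlaps its antisense gene ARRDC1-AS1, listed at 1.43 to 4.33 FPKM, and ARRDC3 overlaps ARRDC3-AS1, listed at no more than 0.09 FPKM. The strandedness of the libraries is not stated in the sources used here, so reads of ARRDC1 and its antisense gene cannot be told apart.

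The libraries held 57406966 to 75065752 estimated counts, which correspond to about 14351742 to 18766438 fragments. The DMSO replicate 1 library of each line stood apart, with 12.6% to 13.7% of the counts in mitochondrially encoded genes against 5.61% to 7.55% in the others. Of 10 monocytic myeloid markers, 10 had a mean of at least 0.5 FPKM in THP-1 and 9 in U-937, where MPO, which encodes myeloperoxidase, had group means of 0.0833 and 0.100 FPKM. The 10 markers summed to 546.0 to 559.9 FPKM in THP-1 with DMSO and 567.4 to 591.1 with honokiol, without overlap. The largest difference of means there was that of CEBPA, at 201.2 and 261.9 FPKM, with overlapping libraries. With honokiol the THP-1 means of CD33, SPI1, CEBPA, ITGAM and CD14 were higher. Those of PTPRC, LYZ, MPO, CSF1R and FCGR1A were lower. In U-937 the 10 markers summed to 546.1 to 881.1 and 454.5 to 549.9 FPKM, and the ranges overlapped. Among markers of other cells, PECAM1, which monocytes also carry, had group means of 15.5 to 41.0 FPKM, and COL1A1 was above 0.5 FPKM only in THP-1 cells with honokiol, at 0.633 FPKM. CD3E, EPCAM, KRT18 and NCAM1 had group means of no more than 0.200 FPKM. The 7 markers measured summed to 24.04 to 47.69 and 28.82 to 52.4 FPKM in THP-1 and to 14.07 to 18.51 and 20.5 to 26.61 FPKM in U-937, with DMSO and honokiol. Their part in the results was not tested.

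TXNIP was the most abundant alpha-arrestin mRNA of THP-1 cells. FPKM values, fragments scaled by the length of the transcript and the size of the library, were 42.01, 47.92 and 49.36 in the 3 DMSO libraries of THP-1 and 36.4, 30.72 and 31.38 in the 3 honokiol libraries. In U-937 they were 3.6, 5.64 and 4.93 with DMSO and 9.31, 12.6 and 14.47 with honokiol. The honokiol libraries thus lay below all DMSO libraries in THP-1 and above all of them in U-937. The 4 groups took the order THP-1 with DMSO, THP-1 with honokiol, U-937 with honokiol and U-937 with DMSO, and no 2 neighbours in this order overlapped. In bulk RNA fewer cells with the transcript and less transcript per cell cannot be told apart.

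The mean TXNIP level was 46.4 ± 3.90 FPKM (SD, n = 3) in THP-1 with DMSO and 32.8 ± 3.11 FPKM with honokiol, a ratio of 0.707. In U-937 it was 4.72 ± 1.04 FPKM with DMSO and 12.1 ± 2.61 FPKM with honokiol, a ratio of 2.57. In the fit of the counts the log2 fold change was -0.55 (SE 0.125) in THP-1 and 1.28 (SE 0.219) in U-937, and the difference of both was 1.82 (SE 0.253). On the linear scale the means with honokiol and DMSO differed by -13.6 FPKM in THP-1 and by 7.40 FPKM in U-937. In DMSO, TXNIP stood above 95.65% of the tested genes in THP-1 and above 60.02% in U-937, and with honokiol above 93.74% and 79.12%. Without the 2 DMSO replicate 1 libraries the log2 fold changes of TXNIP were -0.58 in THP-1 and 1.13 in U-937.

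**Figure D1:**
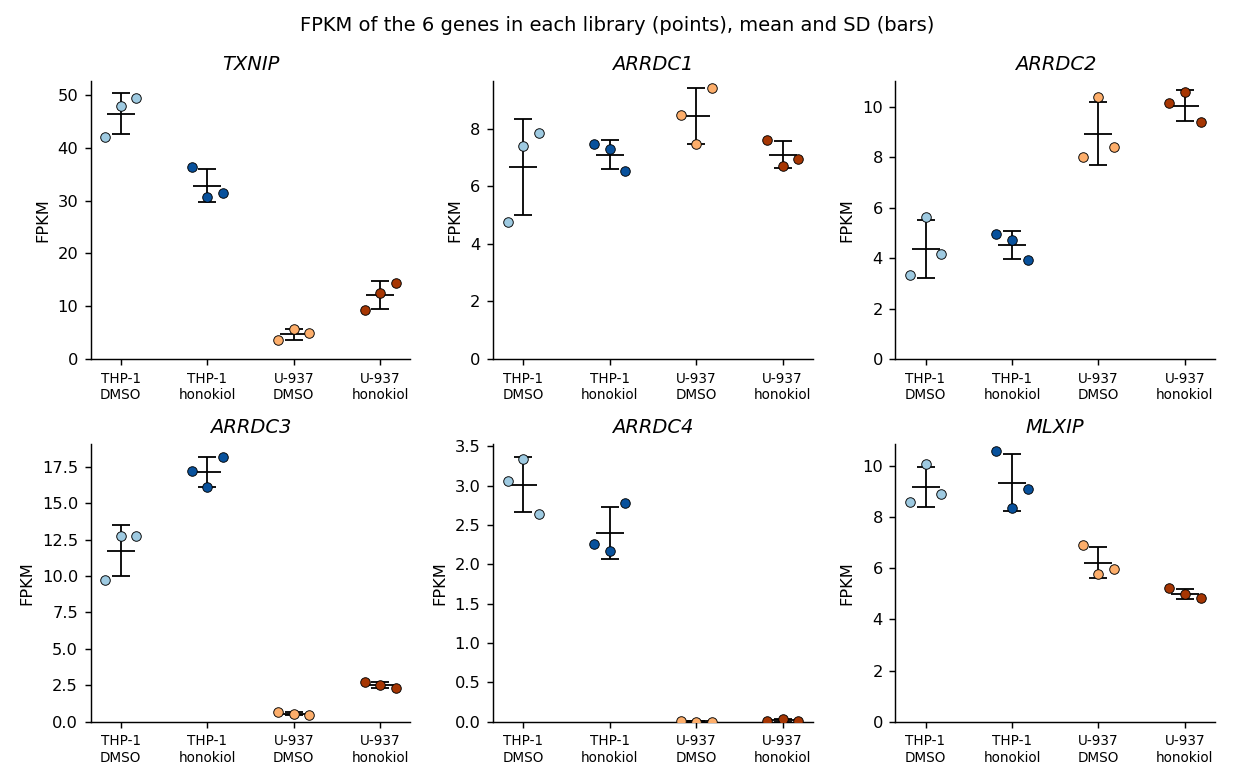
FPKM of TXNIP, ARRDC1, ARRDC2, ARRDC3, ARRDC4 and MLXIP (vertical axes from 0, a scale for each gene) in the 4 groups of line and treatment, with 1 point for each library and bars for the mean and SD of 3 libraries. TXNIP and ARRDC3 separate all 4 groups, ARRDC2 and ARRDC4 separate only the lines, and the groups of ARRDC1 overlap.

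Opposite responses of this kind were sought in the whole table. Of 12343 genes tested in both lines, 1.15% had no overlap between honokiol and DMSO libraries in either line with opposite directions, and TXNIP was the only one of the 6 genes among them, by the choice of the genes. Within a line, lack of overlap was frequent, at 20.6% of all genes for THP-1 and 24.2% for U-937. Of the 6 genes it was found for TXNIP and ARRDC3 in THP-1, and of the 5 genes tested in U-937 for TXNIP, ARRDC3 and MLXIP. Genes were called at an adjusted p-value under 0.05 with a log2 fold change beyond 1 in either direction. By edgeR's quasi-likelihood test 0.0411% of the genes were called in THP-1, 0.0947% in U-937 and 0.111% for the difference of the responses. These shares are the background of contrasts that chose the 6 genes, so nothing is read from them for these genes.

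ARRDC3 was higher with honokiol in both lines, by unequal folds. ARRDC3 hands the beta-2 adrenergic receptor and the integrin beta 4 to ubiquitin ligases. In THP-1 its values were 9.75, 12.77 and 12.73 FPKM with DMSO and 17.18, 16.13 and 18.19 FPKM with honokiol. In U-937 they were 0.69, 0.54 and 0.46 FPKM with DMSO and 2.75, 2.53 and 2.34 FPKM with honokiol. All honokiol libraries lay above the DMSO libraries of their line, and every THP-1 library lay above every U-937 library. The groups took the order THP-1 with honokiol, THP-1 with DMSO, U-937 with honokiol and U-937 with DMSO, again without overlap of neighbours.

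The mean of ARRDC3 was 1.46 times higher with honokiol in THP-1 (11.8 ± 1.73 against 17.2 ± 1.03 FPKM, SD, n = 3) and 4.51 times higher in U-937 (0.563 ± 0.117 against 2.54 ± 0.205 FPKM). The log2 fold changes were 0.50 (SE 0.129) and 2.06 (SE 0.243), and their difference was 1.55 (SE 0.239). On the linear scale the order of the lines was the other one, with a mean 5.42 FPKM higher in THP-1 and 1.98 FPKM higher in U-937. The fold in U-937, where the DMSO libraries were near 0.5 FPKM, depended on the scale. On log2(FPKM + 1) the log2 fold change in U-937 was 1.18, and the difference of the responses was 0.66 in place of 1.55.

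Within a library TXNIP and ARRDC3 could be set against each other without any scaling between libraries. The ratio of TXNIP to ARRDC3 was 3.98 ± 0.292 in THP-1 with DMSO and 1.92 ± 0.197 with honokiol, and the ranges of 3.75 to 4.31 and 1.73 to 2.12 did not overlap. In U-937 the ratio was 8.79 ± 3.10 with DMSO and 4.85 ± 1.40 with honokiol, and the ranges of 5.22 to 10.7 and 3.39 to 6.18 overlapped. The ratio was thus lower with honokiol in THP-1, where TXNIP was lower and ARRDC3 higher, and both genes were higher in U-937. The ratio of TXNIP to MLXIP was 5.06 ± 0.420 and 3.52 ± 0.129 in THP-1 with DMSO and honokiol. In U-937 it was 0.775 ± 0.233 and 2.44 ± 0.612, and the ranges of the treatments did not overlap in either line. The ratios are built from the responses that chose the genes, so nothing further is read from their separation.

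ARRDC4, the closest relative of TXNIP in its known effect on glucose uptake, was a THP-1 transcript in these data. In THP-1 it was at 3.06, 3.34 and 2.64 FPKM with DMSO and 2.26, 2.17 and 2.78 FPKM with honokiol. In U-937 it was listed at 0.01, 0 and 0 FPKM with DMSO and at 0.01, 0.04 and 0.01 FPKM with honokiol. The treatments overlapped in both lines, and the lines did not. The log2 fold change with honokiol was -0.39 (SE 0.190) in THP-1, the direction of TXNIP. In U-937 ARRDC4 was below the filter of 0.5 FPKM in 3 libraries and was not tested there. The U-937 libraries held 6 fragments in all against 1282 in THP-1, a ratio of 199 scaled to library size (95% exact interval 90.9 to 542, for counting error only), and in DMSO 1 fragment stood against 673. In THP-1 the ratio of TXNIP to ARRDC4 was 15.6 ± 2.71 with DMSO and 13.9 ± 2.42 with honokiol, with overlapping ranges.

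ARRDC1, which recruits TSG101 to bud vesicles from the plasma membrane, had overlapping levels in neighbouring groups. With DMSO it was at 4.74, 7.41 and 7.84 FPKM in THP-1 and at 8.47, 7.45 and 9.4 FPKM in U-937. With honokiol it was at 7.48, 7.28 and 6.53 FPKM in THP-1 and at 7.61, 6.71 and 6.96 FPKM in U-937. The lowest value was that of THP-1 DMSO replicate 1, a library with a high mitochondrial share. The log2 fold changes with honokiol were 0.05 (SE 0.183) and -0.34 (SE 0.152), and without the 2 DMSO replicate 1 libraries the value in THP-1 was -0.11.

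ARRDC2, whose role is less well described than that of ARRDC3, separated the lines and not the treatments. It was at 3.34, 5.61 and 4.16 FPKM with DMSO and 4.96, 4.72 and 3.91 FPKM with honokiol in THP-1. In U-937 it was at 8.01, 10.37 and 8.42 FPKM with DMSO and at 10.16, 10.58 and 9.39 FPKM with honokiol. Every U-937 library lay above every THP-1 library, the reverse of TXNIP, ARRDC3 and ARRDC4. The log2 fold changes with honokiol were 0.01 (SE 0.200) in THP-1 and 0.08 (SE 0.141) in U-937, and the first of these changed sign without the 2 DMSO replicate 1 libraries, at -0.12.

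MLXIP encodes MondoA, and its own level need not follow its activity, which depends on its entry into the nucleus. It was at 8.59, 10.08 and 8.91 FPKM with DMSO and 10.58, 8.37 and 9.09 FPKM with honokiol in THP-1. In U-937 it was at 6.92, 5.76 and 5.98 FPKM with DMSO and 5.21, 4.99 and 4.82 FPKM with honokiol. In U-937 all honokiol libraries lay below the DMSO libraries, with a log2 fold change of -0.41 (SE 0.139), while TXNIP was higher in the same libraries. In THP-1 the treatments overlapped, with a log2 fold change of -0.03 (SE 0.137). The difference of the responses was -0.39 (SE 0.188).

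The makeup of the alpha-arrestin mRNA followed from these levels. TXNIP took 64.4% of the summed FPKM of TXNIP and ARRDC1 to ARRDC4 in THP-1 with DMSO (range 62.2% to 66.8%) and 51.2% with honokiol (50.0% to 53.3%). In U-937 it took 20.7% with DMSO (17.3% to 23.5%) and 37.9% with honokiol (31.2% to 43.6%). ARRDC3 took 16.2% and 26.9% in THP-1 and 2.52% and 8.02% in U-937. The share of TXNIP was thus lower and that of ARRDC3 higher with honokiol in THP-1, and in U-937 both shares were higher while ARRDC1 went from 37.4% to 22.4% and ARRDC2 from 39.4% to 31.7%.

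The 5 genes together were at 72.2 ± 8.08 FPKM with DMSO and 64.0 ± 3.79 FPKM with honokiol in THP-1, and at 22.7 ± 1.68 and 31.8 ± 1.75 FPKM in U-937 (SD, n = 3). In both treatments the order in THP-1 was TXNIP, ARRDC3, ARRDC1, ARRDC2 and ARRDC4. In U-937 with DMSO ARRDC2 and ARRDC1 came first, ahead of TXNIP, and with honokiol TXNIP came first by its mean. The ratio of TXNIP to ARRDC2 in U-937 was 0.449 to 0.586 with DMSO and 0.916 to 1.54 with honokiol, so TXNIP exceeded ARRDC2 in some of the honokiol libraries and not in all. The remaining alpha-arrestin gene, ARRDC5, had group means of no more than 0.0167 FPKM.

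**Figure D2:**
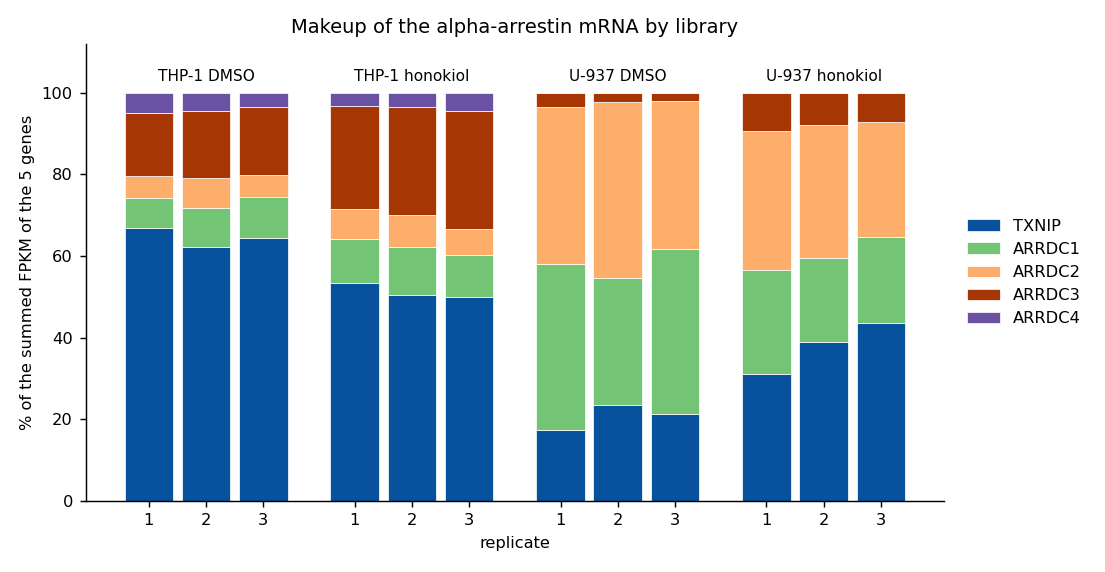
Share of TXNIP, ARRDC1, ARRDC2, ARRDC3 and ARRDC4 in the summed FPKM of these 5 genes (vertical axis, percent, from 0), with 1 stacked bar for each of the 12 libraries. TXNIP takes 62.2% to 66.8% in THP-1 with DMSO and 17.3% to 23.5% in U-937 with DMSO, and the ARRDC4 segment is visible only in THP-1.

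The difference between the lines, averaged over both treatments, was not used to choose the genes and does not depend on their responses, so it was tested, with all 12 libraries fitted together. ARRDC4 passed the filter on low values only through THP-1 and so had to differ, and it is left out of the counts. With edgeR's quasi-likelihood test 3 of the other 5 genes were called, against 34.7% of the 16283 genes tested. TXNIP was lower in U-937 than in THP-1 by a log2 fold change of -2.44 (SE 0.132, edgeR adjusted p = 1.77e-08), and ARRDC3 by -3.62 (SE 0.131, edgeR adjusted p = 8.38e-10). ARRDC2 was higher in U-937, at 1.02 (SE 0.125, edgeR adjusted p = 1.53e-05). Larger absolute differences were found for 14.5% of all genes tested in the case of TXNIP, 10.2% in that of ARRDC3 and 36.0% in that of ARRDC2.

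ARRDC2 stood close to the limit of the fold. Without THP-1 DMSO replicate 1 or 3, THP-1 honokiol replicate 3 or U-937 DMSO replicate 2 its log2 difference was 0.96, 0.98, 0.97 and 0.97, which is under 1, and without both DMSO replicate 1 libraries it was 0.98, which left TXNIP and ARRDC3 called. The fitted value of ARRDC4 was -8.04 (SE 0.496). MLXIP was lower in U-937 by a smaller amount, at -0.80 (SE 0.0947, edgeR adjusted p = 1.21e-05), and was not called. ARRDC1 did not pass, at 0.11 (SE 0.117, edgeR adjusted p = 0.447). The 6 libraries of one line did not overlap those of the other for TXNIP, ARRDC2, ARRDC3 and MLXIP, 4 of these 5 genes, against 41.2% of the genes tested.

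In the DMSO libraries alone, which also enter the responses, the log2 differences between the lines were larger for TXNIP, at -3.34 (SE 0.194), and for ARRDC3, at -4.40 (SE 0.192). The value was 0.99 (SE 0.177) for ARRDC2, -0.60 (SE 0.134) for MLXIP and 0.30 (SE 0.165) for ARRDC1. These values are a description, since they share libraries with the responses that chose the genes. For TXNIP the line with the higher DMSO level was the one with lower values under honokiol, and both lines came closer. For ARRDC3 the lines also came closer on the log2 scale, and moved further apart on the linear scale.

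**Figure D3:**
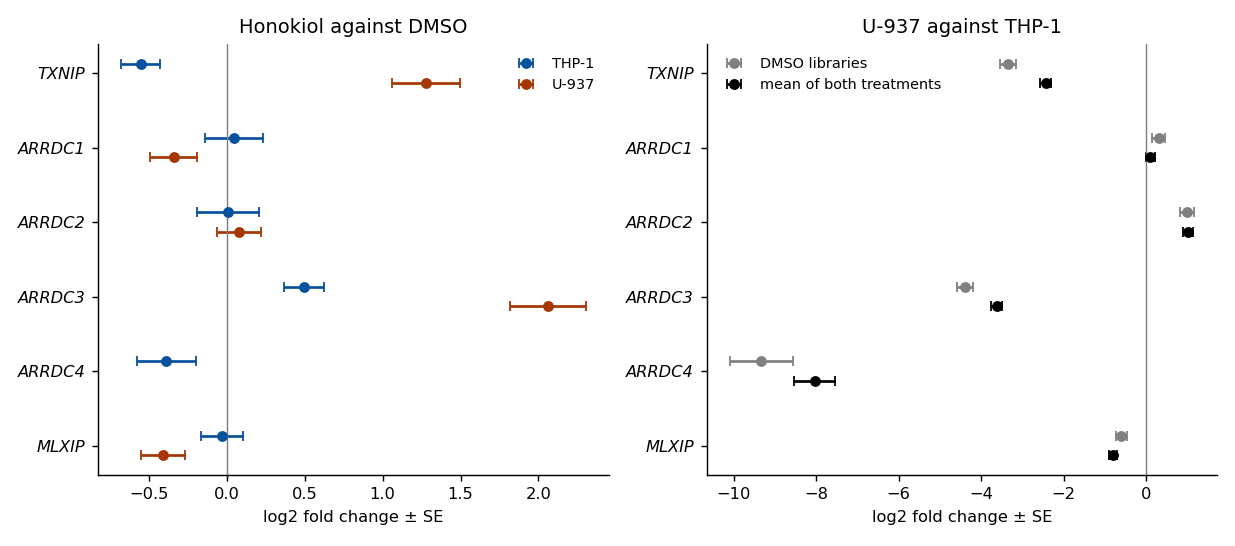
Log2 fold changes with their SE (horizontal axes) of the 6 genes, for honokiol against DMSO in THP-1 and U-937 on the left and for U-937 against THP-1 in the DMSO libraries and over both treatments on the right. TXNIP lies on opposite sides of 0 in the lines, at -0.55 and 1.28, ARRDC3 lies above 0 in both, and ARRDC4 has no value for U-937 with honokiol because it was below the filter there.

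The other genes of the pathway were described from 7 lists with 74 genes. In the difference between the lines over both treatments 65 were tested, and 4 were called higher and 12 lower in U-937, beside the background of 34.7% given above. In the thioredoxin system 2 of 13 genes were higher and 2 lower. TXNRD3, a thioredoxin reductase, was higher at a log2 fold change of 1.37 and PRDX4, the peroxiredoxin of the endoplasmic reticulum, at 1.74. PRDX2 was lower at -1.17, as was NLRP3, the inflammasome sensor that TXNIP is known to bind, at -2.02. TXN itself, the thioredoxin that TXNIP inhibits, had 0.90 (SE 0.137) and was not called. The median of this list was 0.17 against -0.03 over all genes.

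The MLX and MAX network, the bHLH factors that pair or compete with MondoA, had 9 genes tested, none higher and 2 lower. MGA was at -3.77 and MXI1 at -1.30, and MLX, the obligate partner of MondoA, was at -0.91 (SE 0.141) and not called. MLXIPL, which encodes the related sensor ChREBP, was below the filter. The median of the list was -0.58 log2. Among 10 tested genes of glucose uptake and phosphorylation 4 were lower and none higher. They were SLC2A1, the glucose transporter that TXNIP removes from the membrane, at -1.24, SLC2A6 at -2.07, the hexokinase HK3 at -1.28 and PFKFB4, which sets the level of fructose 2,6-bisphosphate, at -2.09. The median of this list was -0.35. TXNIP and SLC2A1 were thus both lower in U-937 than in THP-1, but the libraries of the lines overlapped for SLC2A1 and not for TXNIP.

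Of the HECT ligases and their adaptors 9 were tested and 2 were lower, WWP1 at -1.04 and the adaptor NDFIP2 at -2.57, with a list median of -0.74. ITCH, a ligase known to ubiquitinate TXNIP, was at 0.01 (SE 0.163). Of 6 tested genes of the other arrestin folds, which include the beta-arrestins ARRB1 and ARRB2, 0 were called in edgeR's test, although 4 had an unadjusted p-value under 0.05, and the median was 0.35. Of 9 vesicle partners and cargo genes 2 were lower, the insulin receptor gene INSR at -1.84 and ITGB4, the integrin that ARRDC3 handles, at -1.23, and the median was 0.11. ITGB4 passed the filter only through THP-1, with means of 0.303 and 0.397 FPKM in U-937, and so had to differ. Of 9 tested regulators of TXNIP 2 were higher, FOXO4 at 2.38 and KLF6 at 1.19, and the median was -0.16. In DMSO alone 5 of the 65 genes were higher and 12 lower, against the background of 34.0%.

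With honokiol, none of the list genes was called in edgeR's test, 0 of 65 in THP-1, 0 of 64 in U-937 and 0 of 65 for the difference of the responses. At an unadjusted p-value under 0.05 there were 5 higher and 2 lower in THP-1 against 13.1% of all genes tested, 5 higher and 6 lower in U-937 against 16.7%, and 1 higher and 4 lower for the difference against 9.37%. The list medians ranged from -0.22 to 0.06 for THP-1 and from -0.19 to 0.12 for U-937. DESeq2 called 1 list gene in THP-1 against 1.71% of all genes, 2 in U-937 against 1.62% and 0 for the difference of the responses against 1.11%.

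In THP-1 the list gene with the smallest p-value was FOXO1, a forkhead factor of the insulin pathway. It was at 1.3, 0.97 and 1.06 FPKM with DMSO and 1.9, 3.2 and 3.31 FPKM with honokiol, without overlap. Its log2 fold change was 1.27 (SE 0.266) with an edgeR adjusted p = 0.163, and a DESeq2 adjusted p = 0.00129. TXNRD3 followed in THP-1 with 0.77 (edgeR adjusted p = 0.266).

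In U-937 the closest was DDIT4, which encodes the mTORC1 inhibitor REDD1, a known partner of TXNIP. It was at 46.86, 23.28 and 35.52 FPKM with DMSO and 188.85, 183.02 and 126.89 FPKM with honokiol, without overlap. The log2 fold change was 2.14 (SE 0.288) with an edgeR adjusted p = 0.0598, and it was called with DESeq2 (adjusted p = 1.5e-10) and with limma on log2(FPKM + 0.5) (adjusted p = 0.0438), which called 0.117% of all genes. In THP-1 the DDIT4 libraries overlapped, with DMSO replicate 1 at 11.4 FPKM and the others at 49.45 and 72.21 FPKM, against 52.35 to 151.0 FPKM with honokiol.

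SLC2A1 in U-937 was at 9.16, 11.07 and 5.93 FPKM with DMSO and 4.46, 4.41 and 4.28 FPKM with honokiol. All honokiol libraries were lower, with a log2 fold change of -1.09 (SE 0.231), an edgeR adjusted p = 0.0989 and a DESeq2 adjusted p = 0.00119. HK2, a hexokinase that makes glucose 6-phosphate, was at -0.68 (edgeR adjusted p = 0.0711) in U-937. The hexokinase HK3 went the other way there, at 0.98 (edgeR adjusted p = 0.14) and without overlap. HK1 was at -0.16 (edgeR adjusted p = 0.606). In THP-1 SLC2A1 was at 11.68, 15.31 and 21.7 FPKM with DMSO and 16.55, 5.84 and 14.1 FPKM with honokiol. Its log2 fold change was -0.46 (SE 0.366), with overlapping libraries. The mean of SLC2A1 was thus lower with honokiol in both lines, beside a higher TXNIP in U-937 and a lower TXNIP in THP-1.

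**Figure D4:**
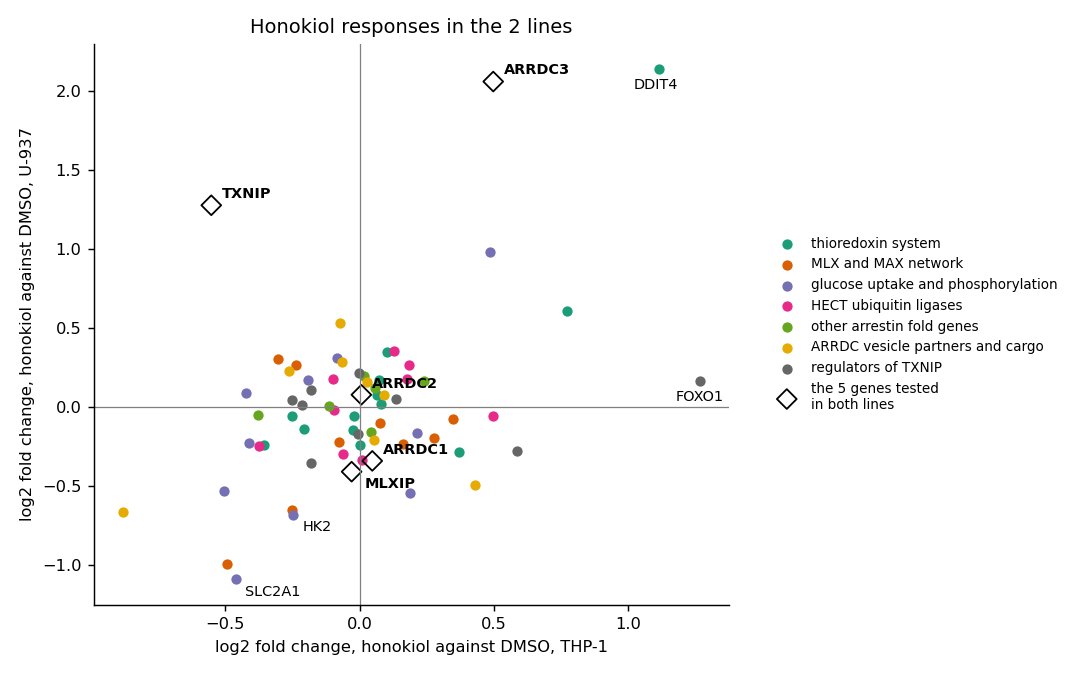
Log2 fold change of honokiol against DMSO in THP-1 (horizontal axis) and in U-937 (vertical axis) for the genes of the 7 lists tested in both lines (coloured points) and for TXNIP, ARRDC1, ARRDC2, ARRDC3 and MLXIP (open diamonds). TXNIP lies in the upper left at -0.55 and 1.28, ARRDC3 lies near DDIT4 with values above 0 in both lines, and FOXO1 lies at the right edge at 1.27 in THP-1.

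The genes most like TXNIP and ARRDC3 over the 12 libraries were named by the smallest mean absolute difference of their deviations on the log2(FPKM + 0.5) scale, among 11438 genes with a mean of at least 1 FPKM. For TXNIP the closest was CCNYL1, a cyclin Y relative, at 0.26, with means of 23.1 and 18.4 FPKM in THP-1 and 3.88 and 6.0 FPKM in U-937 with DMSO and honokiol. It was followed by SLC38A2, a transporter of neutral amino acids, at 0.27 and CLDN12 at 0.30. For ARRDC3 the closest was CD38, an NAD-consuming surface enzyme of blood cells, at 0.26, with means of 8.11 and 15.0 FPKM in THP-1 and 0.300 and 2.35 FPKM in U-937. TRANK1 and IFI35 followed at 0.33 each. The likeness covers the line and the treatment together and is a description over these libraries.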

How the data were processed

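Poly(A) RNA of 12 libraries was analysed from the processed table of the series. For each gene it holds an FPKM value, scaled by the authors to transcript length and library size, and an estimated count that the authors deposited without normalization. The labels' processing notes name HISAT2 2.0, StringTie 1.3.0 and Bowtie 0.12.2 and a mouse genome build, whereas 35762 of the 36866 identifiers were found in the human GENCODE 29 and 99.79% of these overlapped its GRCh38 coordinates. The labels and the study's methods name different sequencers, and the series text names a microarray. Among low values a count of 4 was frequent (17264 values, against 6764 of 3 and 4016 of 5), so a fragment is worth about 4 counts. No 2 libraries were alike, with at least 25917 genes of different count in every pair.

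Counts were tested as deposited with edgeR's quasi-likelihood test (edgeR 4.0.16, R 4.3.3, TMM). The SE given with its log2 fold changes was derived from the test. It is the absolute log2 fold change divided by the square root of the F statistic. Genes with at least 0.5 FPKM in at least 3 libraries were tested, 14600 in THP-1, 13726 in U-937 and 16283 over 12 libraries. Called genes had a Benjamini-Hochberg adjusted p-value under 0.05, over all genes tested, with a log2 fold change above 1 or below -1. Limma 3.58.1 on log2(FPKM + 0.5), DESeq2 1.42.0, other filters, a replicate block and libraries left out were alternatives. The 6 genes and the lists were chosen with earlier results of these data known. Named were the 6 genes, of each list at most 4 called genes in each direction or at most 2 with the smallest p-values, and the 3 genes most like TXNIP and ARRDC3. TXN, MLX, MLXIPL, ITCH, ARRB1 and ARRB2 were named for their roles after their values were seen. So were HK1 and HK3 for honokiol in U-937. Markers MS4A1 and HBB were not analysed here, and single values of some other markers are not reported here. Promoters came from RefSeq (GRCh38.p14).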

Additional observations from a re-analysis of the deposited data

Results flagged for a closer look

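TXNIP was marked because its responses differed between the lines. Every honokiol library of THP-1 lay below the DMSO libraries of THP-1. Every honokiol library of U-937 lay above the DMSO libraries of U-937. The log2 fold changes of the lines differed by 1.82 (SE 0.253). The difference was not tested, because the gene was chosen by it. It lay between 1.66 and 1.97 over the 22 alternatives. The test of the gap between a single library and the others of its group needs at least 4 libraries and was not applied to these groups of 3.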

How the results depend on the processing

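No call turned its direction. In the difference between the lines over both treatments 3 to 4 of the 6 genes were called, beside 34.7% of all genes in the main fit. ARRDC4, which had to differ, is included in these counts. The difference in DMSO is a description for these genes, and its calls are not counted here. The call of ARRDC2 over both treatments was lost in 6 of 22 alternatives (0.95 to 1.11 in all). Over the alternatives the TXNIP response of THP-1 cells ranged from -0.64 to -0.49 and that of U-937 cells from 1.12 to 1.44, and the ARRDC3 responses from 0.42 to 0.55 and from 1.18 to 2.26, with a difference of 0.66 to 1.84. Small responses in THP-1 changed sign in part, and ARRDC2 kept its sign in 10 of 17 alternatives, ARRDC1 in 15 and MLXIP in 12. The difference of the responses of ARRDC4 went from 0.26 to 6.20 and rests on 6 fragments in U-937. Of the list genes, DESeq2 called 1 for THP-1 and 2 for U-937, and limma with any of the pseudocounts called 1 in U-937, in place of 0. The replicate numbers share no stated origin, and same-numbered libraries did not deviate together (r of -0.155 to 0.0936). With the replicate block 4 of the 6 genes, ARRDC4 included, were called between the lines over both treatments, beside 5614 of all 16283 genes tested. Of the list genes 0 were called with honokiol under the block. Over all genes the block left 0 calls in each line and 0 for the difference, against 6, 13 and 18, while DESeq2 called 250, 223 and 181 and one fit of all libraries 33 and 108 in the lines. Leaving out a library gave 0 to 43 in THP-1, 0 to 6 in U-937 and 1 to 22 for the difference, and without both DMSO replicate 1 libraries there were 1, 6 and 7. Without the filter there were 0, 2 and 6, with 1 FPKM as its limit 1 in THP-1, with counts divided by 4 there were 0 for the difference, and limma gave 0 in THP-1 and 1 to 3 for the difference. For the lines over both treatments the count was 9399 without the filter and 2999 on log2(FPKM + 1), against 5648, and in DMSO 3115 on log2(FPKM + 1), against 5542. The cause of these changes was not tested. At this depth levels under 0.5 FPKM, such as ARRDC4 in U-937, rest on a few fragments.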
